A study of Mus musculus with 8 samples.

Results

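The genes described here encode the proteins of the mitochondrial ribosome (mitoribosome). They were taken by name, as every gene of the deposited table whose symbol starts with Mrpl or Mrps followed by a digit, and 77 of the 18770 listed genes met this rule. Of these, 48 were large subunit genes (Mrpl) and 29 were small subunit genes (Mrps). All 77 are annotated as protein coding, and all 77 passed the filter on low values.

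Expression was measured by mRNA sequencing in dorsal skin of male mice, as dermis that still held its hair follicles, labelled as C57BL/6 and wildtype, 7 to 8 weeks of age, at D4 after depilation. The AP group received alpinetin, a plant flavonoid, at 3 mg/ml in 20 µl of 65% ethanol once a day from 24 h after depilation, and the vehicle control (VC) group received 20 µl of 65% ethanol. All mice of both groups had been depilated, which starts a new hair cycle. The study's methods describe a removal of interfollicular epidermal keratinocytes from the tissue, but keratinocyte markers were counted in both groups, as given below. The comparison asks how transcript levels in this tissue differ between AP and VC, with 4 libraries in each group.

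The libraries, AP.1 to AP.4 for alpinetin and VC.1 to VC.4 for vehicle, could be assigned to a group by name but not to a single labelled mouse. The p-values given here therefore measure the spread between these libraries. Reads counted on listed genes numbered 7264151, 6833615, 6479827 and 6454563 in VC.1 to VC.4, against 8507783, 10853773, 11190113 and 8863517 in AP.1 to AP.4. The mitoribosomal genes took 16488, 16750, 16952 and 12410 of these reads in the VC libraries and 26203, 31723, 33032 and 28500 in the AP libraries. No member had fewer than 31 reads in any library. Values are normalized counts, that is reads divided by 1 size factor per library, and fold changes are AP over VC on the log2(normalized count + 1) scale.

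The mitoribosome translates the few messenger RNAs that are made inside the mitochondrion, all of which code for subunits of the respiratory chain and ATP synthase. Its ribosomal RNAs come from mitochondrial DNA, while its proteins are encoded in the nucleus, made in the cytosol and imported. The large subunit forms peptide bonds and holds the exit tunnel, where new proteins are handed to the inner membrane, and the small subunit binds the messenger RNA and decodes it. Part of the proteins have homologs in bacterial ribosomes and the others are found only in mitochondria. In skin, mitochondrial function in keratinocytes is known to be needed for hair follicle growth.

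Mitoribosomal transcripts were lower in the AP group in both subunits under the deposited scaling, while scaling by total counts turned the direction (median log2 fold change 0.43). By limma's moderated test with an adjusted p under 0.05, 17 of the 77 members were lower in AP and 0 were higher. Over all 15964 genes tested, 4.0% were lower and 6.33% were higher by the same rule. The count of 0 higher members was also found with edgeR and DESeq2, and at an unadjusted p under 0.05, which 37 members met, the members above 0 numbered 0. Of all genes tested, 30.3% met this threshold, 13.3% below 0 and 17% above 0. The log2 fold change was below 0 in 69 of the 77 members, with a median of -0.44 against 0.06 over all genes tested. In 31 members every AP library lay below every VC library, and in 0 every AP library lay above, where the same held for 8.91% and 10.3% of all genes tested.

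The log2 fold change ran from -1.18 (Mrps6) to 0.33 (Mrps5 and Mrps18b), and its SE had a median of 0.19. The median log2 fold change corresponded to 0.737 times the VC level. The study's methods give thresholds of p under 0.01 and a change of more than 1.5-fold. Applied here with p before adjustment, they gave 17 lower and 0 higher members. Of all genes tested, 5.32% were lower and 8.26% were higher by the same rule.

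**Figure D1:**
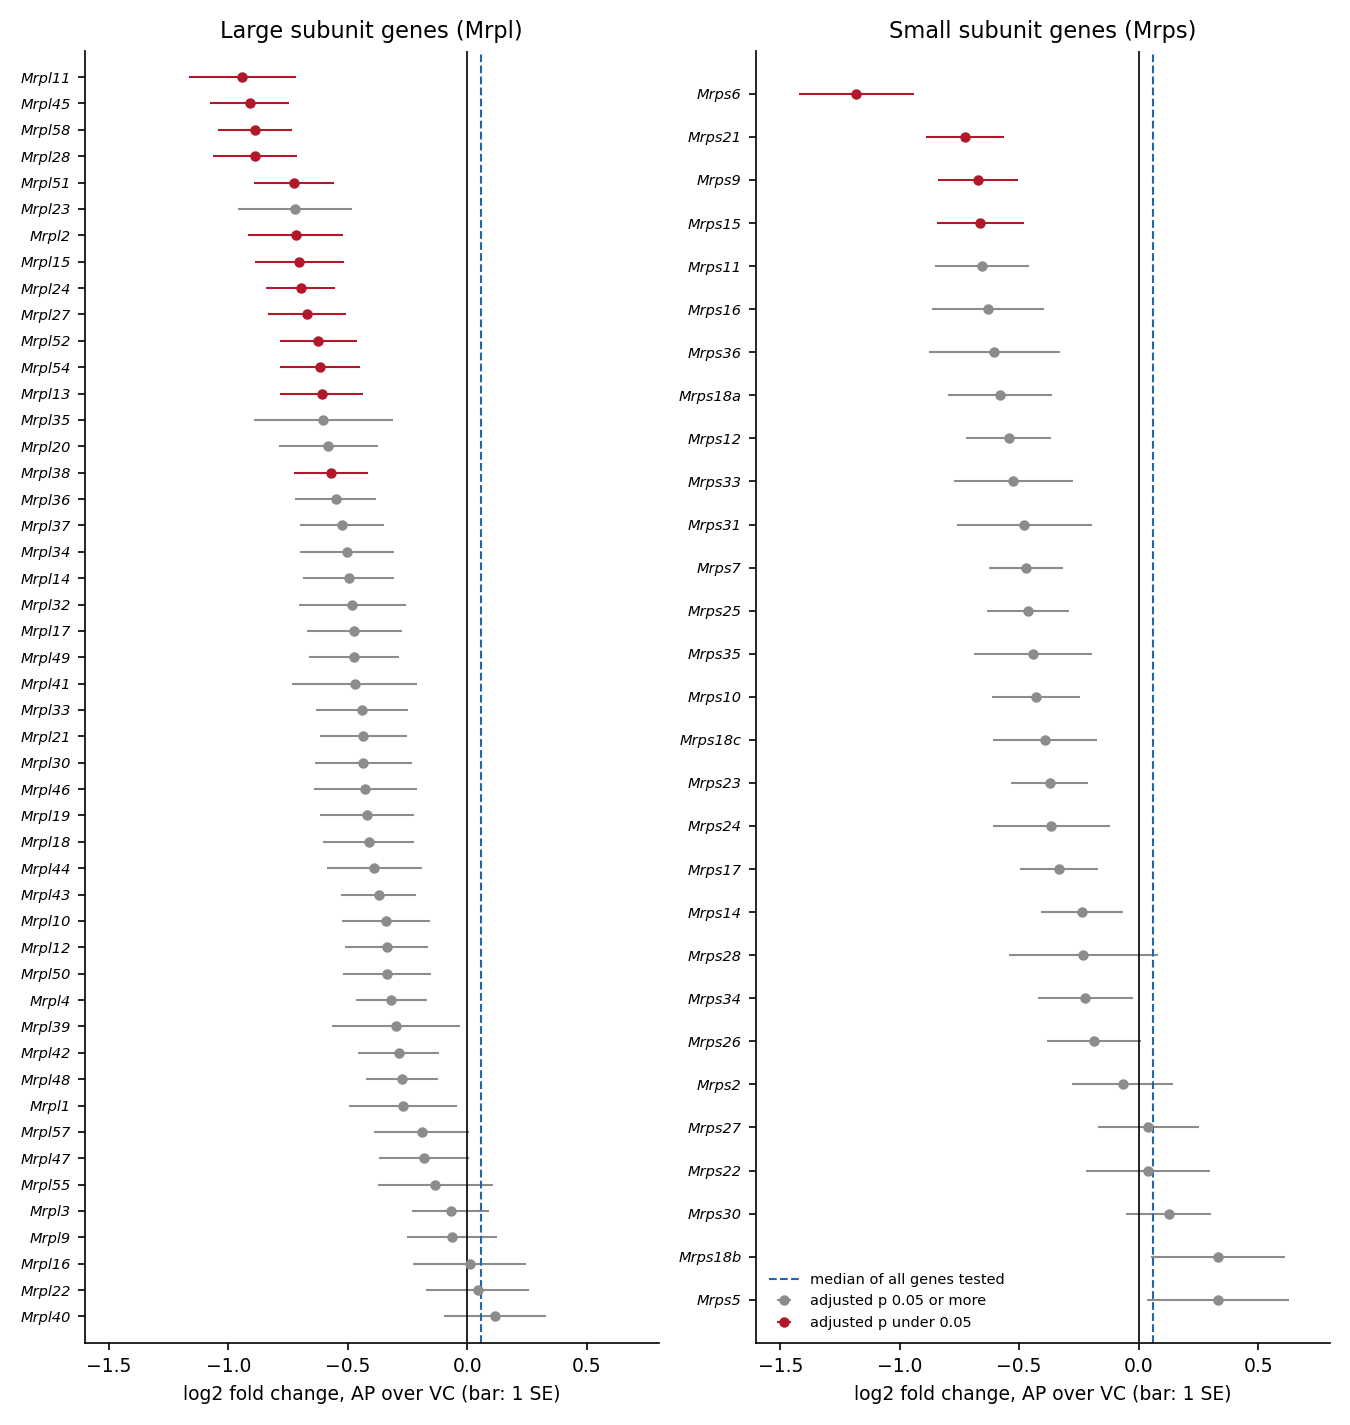
Log2 fold change (AP over VC) of all 77 members, large subunit genes on the left and small subunit genes on the right, with bars of 1 SE from limma on 4 AP and 4 VC libraries. Red points have an adjusted p under 0.05, the dashed line marks the median of all genes tested (0.06), and 69 of the 77 points lie below 0 under the deposited scaling, while under scaling by total counts 5 do.

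The direction rests on how the libraries are scaled to each other. Reads from mitochondrially encoded genes made up 54.3%, 44.9%, 42.1% and 52.3% of the counted reads in VC.1 to VC.4, against 11.1%, 7.85%, 5.32% and 10.3% in AP.1 to AP.4. When libraries were scaled by total counts, the median of all genes moved by 0.84, reaching 0.90, the median of the members became 0.43, 0 members were lower and 24 were higher, while 54.2% of all genes were higher. Relative to the median of all genes, the members lay at -0.50 under the deposited scaling and at -0.47 under total counts. With the mitochondrially encoded genes left out of the total, 14 members were lower, and all 14 were among the 17. Of the reads on nuclear genes, the members took 0.497%, 0.445%, 0.452% and 0.403% in the VC libraries and 0.347%, 0.317%, 0.312% and 0.359% in the AP libraries, so that the highest AP library lay below the lowest VC library. In whole tissue, fewer cells of a type rich in these transcripts and less transcript per cell cannot be told apart.

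Both subunits showed the difference. The mean level of the 48 large subunit genes, on the log2 scale, came to 8.54, 8.32, 8.21 and 8.23 in VC.1 to VC.4, against 7.94, 7.76, 7.74 and 8.05 in AP.1 to AP.4. For the 29 small subunit genes it was 8.10, 7.88, 7.81 and 7.73 in the VC libraries and 7.57, 7.47, 7.39 and 7.63 in the AP libraries. In both subunits the groups did not overlap, VC.1 was the highest VC library and AP.4 the highest AP library. VC.1 held the highest VC value in 49 of the 77 members, and AP.4 held the highest AP value in 44.

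Among large subunit genes 13 of 48 were lower (27.1%), and among small subunit genes 4 of 29 (13.8%), with medians of -0.46 and -0.43. The AP libraries lay wholly below the VC libraries in 19 large and 12 small subunit genes. The difference in level between the subunits, large minus small, came to 0.44, 0.44, 0.40 and 0.50 in VC.1 to VC.4, against 0.36, 0.30, 0.35 and 0.42 in AP.1 to AP.4. These values overlapped between the groups, and whether the subunits differ in their response was not tested.

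**Figure D2:**
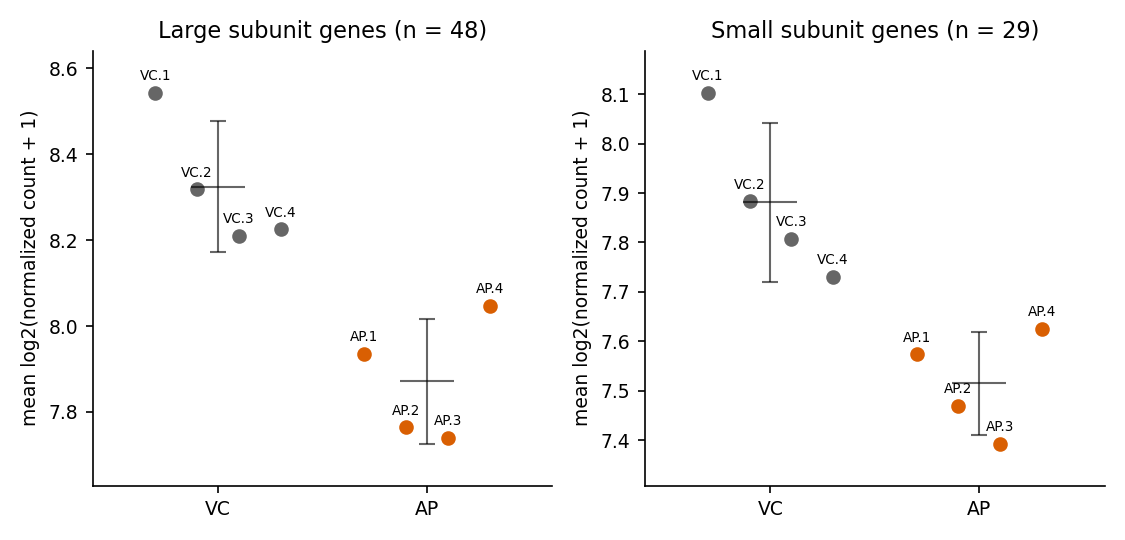
Mean log2(normalized count + 1) over the 48 large subunit genes (left) and the 29 small subunit genes (right) in each of the 4 VC and 4 AP libraries, with the group mean and SD as bars, on axes that do not start at 0. Each AP library lies below each VC library in both subunits under the deposited scaling, and VC.1 is the highest of all.

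In the large subunit, Mrpl58 (ENSMUSG00000018858 on chromosome 11 of mm10, 115403752 to 115412674) had the lowest p of all members. It encodes a peptidyl-tRNA hydrolase, once called ICT1, which is built into the large subunit and releases stalled peptides. Mrpl58 had 358, 372, 407 and 381 normalized counts in VC.1 to VC.4, against 222, 194, 177 and 228 in AP.1 to AP.4. The groups did not overlap, and the VC libraries were close together. The log2 fold change was -0.89 ± 0.16 (SE), with a limma adjusted p of 0.0106.

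Mrpl45 encodes a mitochondria-specific protein near the exit tunnel that ties the ribosome to the inner membrane. Its normalized counts were 437, 346, 300.4 and 364 in VC.1 to VC.4, against 182, 195, 179 and 205 in AP.1 to AP.4. All AP libraries were near one another and below all VC libraries, with a log2 fold change of -0.91 ± 0.17 (SE) and a limma adjusted p of 0.0119. Mrpl11, a protein at the base of the stalk that recruits translation factors, had 540.3, 310.3, 277 and 371 normalized counts in the vehicle libraries and 215, 185, 152 and 207 in the AP libraries. VC.1 was far above the other VC libraries, and the groups did not overlap. Its log2 fold change of -0.94 ± 0.22 (SE; limma adjusted p = 0.0272) was the lowest of the large subunit, and without VC.1 it was -0.75 and did not pass (limma adjusted p = 0.0524).

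Mrpl28, a homolog of a bacterial large subunit protein, had 746, 616, 606 and 651 normalized counts in VC.1 to VC.4, against 432, 299, 288 and 412 in AP.1 to AP.4. AP.1 and AP.4 were higher than AP.2 and AP.3, and all 4 were below the VC libraries. Its log2 fold change was -0.89 ± 0.18 (SE; limma adjusted p = 0.0157). Mrpl24, which in bacteria lies at the outer rim of the exit tunnel, had 820.4, 629.5, 672 and 711 normalized counts in the vehicle libraries and 465, 416, 457 and 402 in the AP libraries. This was the member with the smallest SE, with a log2 fold change of -0.70 ± 0.14 (SE) and a limma adjusted p of 0.0176.

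Other large subunit genes that were lower and lie close to the catalytic centre in bacterial ribosomes were Mrpl2 and Mrpl27. Mrpl2 fell from 391 ± 65.9 normalized counts (SD, n = 4) to 239 ± 52.8 (SD, n = 4), with a limma adjusted p of 0.0427. Mrpl27 fell from 310.0 ± 31.0 (SD, n = 4) to 194 ± 17.7 (SD, n = 4), with a limma adjusted p of 0.0286. Mrpl15, another homolog of a bacterial protein, fell from 347 ± 64.0 (SD, n = 4) to 212 ± 30.8 (SD, n = 4), with a limma adjusted p of 0.0384. Mrpl51, a mitochondria-specific protein, had 780.4, 538, 535 and 523 normalized counts in the vehicle libraries and 347, 365, 324 and 379.8 in the AP libraries. VC.1 was again the highest library, and the log2 fold change was -0.73 ± 0.17 (SE; limma adjusted p = 0.0245).

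The remaining lower large subunit genes were Mrpl52 (log2 fold change -0.62), Mrpl54 (-0.62), Mrpl13 (-0.61) and Mrpl38 (-0.57), with limma adjusted p from 0.0345 to 0.0473. Mrpl54, Mrpl13 and Mrpl38 are named here after their values were seen.

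Several large subunit genes known for their role or for human disease did not pass the test. Mrpl12, the stalk protein that contacts translation factors, was the member with the highest mean count. It had 948, 758, 748 and 609 normalized counts in VC.1 to VC.4, against 659, 536, 519 and 699 in AP.1 to AP.4. AP.1 and AP.4 lay above VC.4, and the log2 fold change was -0.34 ± 0.17 (SE; limma adjusted p = 0.211). Mrpl44, a protein with a ribonuclease III fold whose loss causes cardiomyopathy in infants, had a log2 fold change of -0.39 ± 0.20 (SE; limma adjusted p = 0.212). Mrpl3, close to the peptidyl transferase centre, had 253, 231, 210.3 and 259 normalized counts in the vehicle libraries and 198, 234, 238 and 237 in the AP libraries. These ranges overlapped, with a log2 fold change of -0.07 ± 0.16 (SE; limma adjusted p = 0.803). Mrpl57 had a log2 fold change of -0.19 ± 0.20 (SE; limma adjusted p = 0.544).

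Only 3 large subunit genes had a log2 fold change above 0, Mrpl40 (0.12), Mrpl22 (0.04) and Mrpl16 (0.01), and none of them passed the test (under total-count scaling all but 5 of the 77 members were above 0). Mrpl40 was the highest, with 132 ± 21.5 normalized counts (SD, n = 4) in VC and 143 ± 22.6 (SD, n = 4) in AP. The SE of its fold change was 0.21, larger than the change itself.

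**Figure D3:**
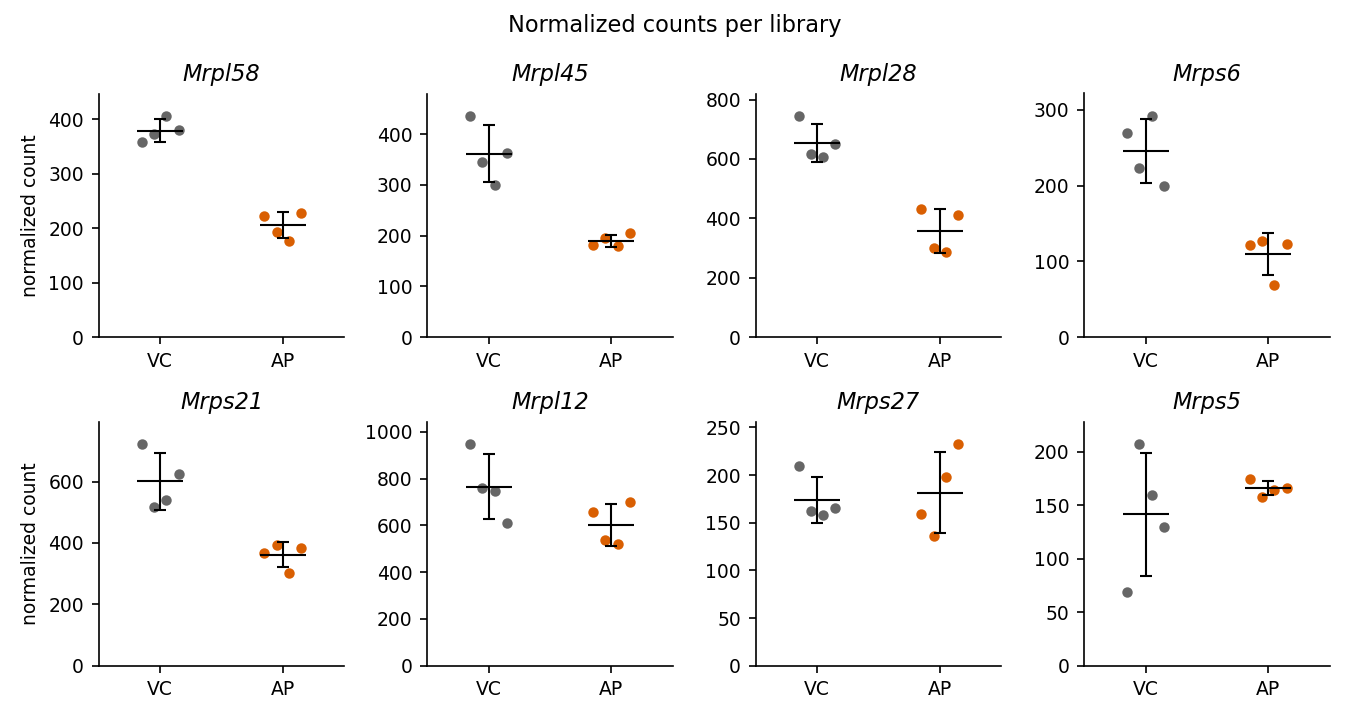
Normalized counts in each of the 4 VC and 4 AP libraries for 8 members, with the group mean and SD as bars and axes from 0. The 5 genes Mrpl58, Mrpl45, Mrpl28, Mrps6 and Mrps21 have AP libraries wholly below the VC libraries under the deposited scaling, while Mrpl12, Mrps27 and Mrps5 overlap between the groups.

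In the small subunit, Mrps6 differed most of all members under the deposited scaling. Its protein is a homolog of a bacterial protein on the platform of the small subunit. Mrps6 (chromosome 16 of mm10, 92058270 to 92112227) had 269, 223, 292 and 199 normalized counts in VC.1 to VC.4, against 121, 127, 68.8 and 122 in AP.1 to AP.4. AP.3 was far below the other AP libraries, and the groups did not overlap. It had a log2 fold change of -1.18 ± 0.24 (SE; limma adjusted p = 0.0173), and -0.97 without AP.3. This gene shares exon sequence on the same strand with Slc5a3, a transporter gene, so that reads of the 2 genes may be mixed.

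Mrps21, the homolog of a protein at the messenger RNA exit of the bacterial small subunit, had 722, 519, 539 and 624 normalized counts in VC.1 to VC.4, against 368, 393, 303 and 383 in AP.1 to AP.4. The highest AP library lay well below the lowest VC library, with a log2 fold change of -0.73 ± 0.16 (SE) and a limma adjusted p of 0.0227. Mrps9, whose bacterial homolog touches the transfer RNA in the peptidyl site, had 220.1, 276, 258 and 246 normalized counts in the vehicle libraries and 176, 147, 150.5 and 153 in the AP libraries, without overlap (log2 fold change -0.67 ± 0.17 SE, limma adjusted p = 0.0321). Mrps15, named here after its value was seen, completed the 4, with a log2 fold change of -0.66 ± 0.18 (SE; limma adjusted p = 0.0418).

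Mrps12, the decoding centre protein, had 378, 365, 258 and 291 normalized counts in the vehicle libraries and 207, 219, 203 and 247 in the AP libraries. The groups did not overlap, but the change did not pass the test (log2 fold change -0.54 ± 0.18 SE, limma adjusted p = 0.0685). Mrps16, mutated in a severe inborn defect of mitochondrial translation, had 564, 282, 313 and 285 normalized counts in VC.1 to VC.4, against 263, 193, 201 and 239.6 in AP.1 to AP.4. VC.1 stood far above the other VC libraries, its groups did not overlap, and the log2 fold change was -0.63 ± 0.23 (SE; limma adjusted p = 0.0989). Mrps22, also a disease gene, had a log2 fold change of 0.04 ± 0.26 (SE; limma adjusted p = 0.932), and for Mrps27, a pentatricopeptide repeat protein, it was 0.04 ± 0.21 (SE; limma adjusted p = 0.915).

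Mrps5, a homolog of a bacterial protein near the messenger RNA entry, shared the highest log2 fold change of all members with Mrps18b, which had the higher ratio of group means. It had 69.1, 207, 159.8 and 129 normalized counts in VC.1 to VC.4, against 174, 158, 164 and 166 in AP.1 to AP.4. The AP libraries were close together and lay inside the wide range of the VC libraries, in which VC.1 was the lowest. The log2 fold change of 0.33 ± 0.30 (SE) did not pass the test (limma adjusted p = 0.476). It was 0.03 without VC.1 and 0.05 with the length trend removed. Under total-count scaling it was 1.20 and Mrps5 passed the test (limma adjusted p = 0.0183).

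The names of a few members do not match their place in the ribosome. Mrps18a, Mrps18b and Mrps18c are paralogs of a single bacterial small subunit protein, and the Mrps18a protein sits in the large subunit, as does that of Mrps30. Log2 fold changes were -0.58 ± 0.22 (SE) for Mrps18a, 0.33 ± 0.28 (SE) for Mrps18b and -0.39 ± 0.22 (SE) for Mrps18c, and for Mrps30 it was 0.13 ± 0.18 (SE). None of the 4 passed the test, with limma adjusted p of 0.10, 0.454, 0.249 and 0.667. Mrps36 is now known as a part of the 2-oxoglutarate dehydrogenase complex, and it had a log2 fold change of -0.60 ± 0.27 (SE; limma adjusted p = 0.164). With Mrps18a and Mrps30 counted in the large subunit and Mrps36 left out, 13 of 50 large and 4 of 26 small subunit genes were lower, with medians of -0.46 and -0.41.

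Members were also divided by whether their protein has a bacterial homolog, with subunits taken by gene name, so that Mrps18a and Mrps30 count as small. Of the 48 with a bacterial homolog, 11 were lower and 44 had a fold change below 0 (median -0.46). Of the 28 that are specific to mitochondria, 6 were lower and 24 were below 0 (median -0.41). All 6 were large subunit genes, of which this kind numbered 18, while 0 of the 10 mitochondria-specific small subunit genes passed limma's test, with a median of -0.30. This division was made after the values were seen, and the difference between the kinds was not tested.

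Levels of single members can be compared only per length of transcript. Per 1000 bases of the longest principal transcript, the highest levels in the large subunit were those of Mrpl52 (1735 normalized counts in VC and 1135 in AP) and Mrpl33 (1167 and 851). The lowest were those of Mrpl1 (31.4 in VC and 25.9 in AP), which forms the stalk at the transfer RNA exit, and Mrpl19 (47.5 and 35.3). In the small subunit, Mrps21 (1232 in VC and 741 in AP) and Mrps24 (424 and 314) were highest, and Mrps5 (31.5 and 37) and Mrps35 (48.6 and 34.0) were lowest. These values depend on the annotated transcript, and which transcript the skin makes was not measured.

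The fold change moved with transcript length over all genes. Spearman's rho between transcript length and log2 fold change was 0.28 over the 15964 genes and 0.22 over the 77 members, genes not being independent replicates. The members were short, with a median length of 1316 bases against 2824.5 over all genes tested. Among transcripts of 600 to 899 bases the 15 members had a median log2 fold change of -0.54 and the 730 other genes -0.29, and at 900 to 1199 bases it was -0.43 for 16 members and -0.37 for 846 other genes. At 1800 to 2999 bases it was -0.32 for 10 members and -0.05 for 4373 other genes, and at 3000 to 4999 bases -0.27 for 13 members and 0.18 for 4575 other genes. In these ranges, in the same order, limma called 3, 3, 2 and 3 members lower. Of the other genes it called 10.7%, 9.34%, 3.70% and 2.03% lower, so the share among short transcripts was above the 4.0% over all genes. With the trend on length removed from each library, 13 members were lower, 12 of them among the 17, and the members lay 0.37 below the median of all genes instead of 0.50. The part of transcript length in the result was otherwise not tested.

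**Figure D4:**
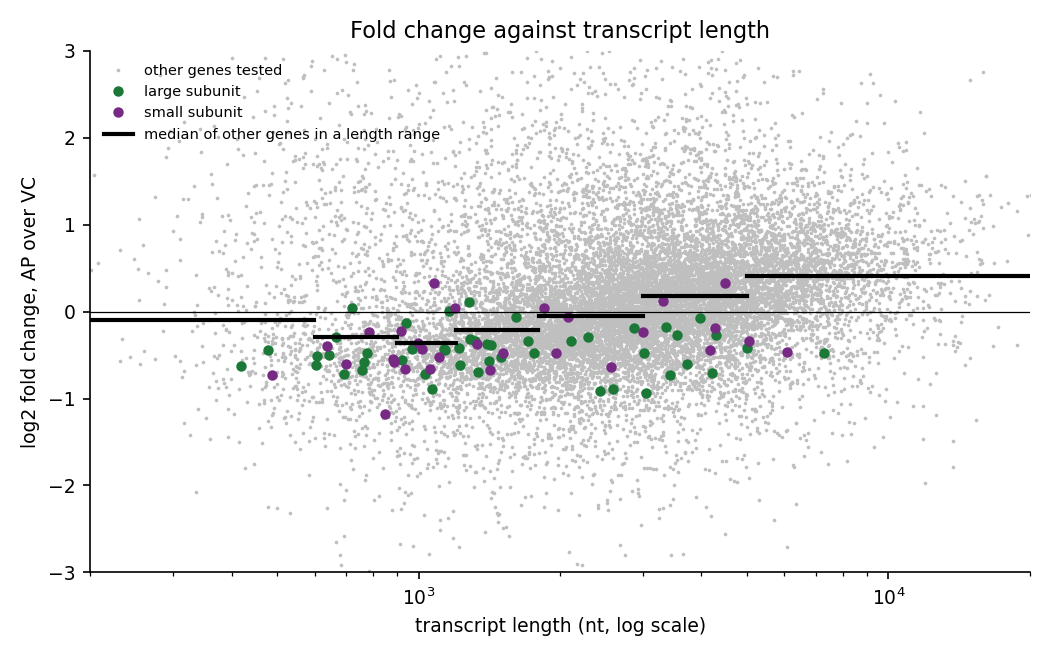
Log2 fold change (AP over VC) against transcript length on a log axis for all genes tested (grey), with large (green) and small (purple) subunit genes marked and black lines for the median of the other genes in 7 length ranges. Genes beyond the axes are not drawn, the black lines go from -0.10 for the shortest and -0.37 at 900 to 1199 bases to 0.41 for the longest transcripts, and most members lie below them.

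Proteins of the mitoribosome that carry other names were examined as well. Of 6 such genes, 1 was lower and 0 were higher, 5 had a fold change below 0 and the median was -0.45 (0.41 with 3 higher under total-count scaling, where 54.2% of all genes tested were higher). Gadd45gip1, also called CRIF1, sits at the exit tunnel of the large subunit. It had 653, 653, 599 and 499 normalized counts in VC.1 to VC.4, against 413, 335, 356 and 413 in AP.1 to AP.4, with no overlap and a log2 fold change of -0.66 ± 0.15 (SE; limma adjusted p = 0.0253). It did not pass without VC.1, AP.2, AP.3 or AP.4, where the list had 0 lower genes. Dap3 (-0.56), Oxa1l (-0.51), Aurkaip1 (-0.40), Chchd1 (-0.37) and Ptcd3 (0.39) did not pass the test at these log2 fold changes.

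Factors that build or serve the mitoribosome were examined next. Of 25 genes for its assembly and for the modification of its RNA, 0 passed limma's test in either direction (1 was lower with DESeq2 and 0 with edgeR) and 3 had an unadjusted p under 0.05, as did 30.3% of all genes tested, with a median log2 fold change of -0.18 (0.69 with 11 higher under total-count scaling). Of 15 translation factors, among them Tufm, Gfm1 and Mtif2, 0 passed with limma, edgeR or DESeq2 and 2 had an unadjusted p under 0.05 (median -0.06, and 0.80 with 8 higher under total-count scaling). With the length trend removed 1 translation factor was lower and their median was -0.21, when the median of all genes was -0.09. With the median transcript length, chosen after the data were seen, these medians were -0.31 and -0.08. The median of the translation factors was -0.16 without VC.1, -0.10 without VC.3, -0.17 without VC.4, and -0.12 when either AP.1 or AP.3 was omitted. Of 22 mitochondrial aminoacyl-tRNA synthetases and related enzymes, 1 was higher and 0 were lower by limma (median 0.15, and 1.0 with 15 higher under total-count scaling), while edgeR and DESeq2 each called 1 lower as well, as did limma with upper-quartile scaling, the stricter filter or reads drawn to equal depth. The higher gene was Iars2, which charges the isoleucine transfer RNA. It had 246, 362, 262 and 218 normalized counts in the vehicle libraries and 414, 474, 464 and 416 in the AP libraries, every AP library lying above every VC library, with a log2 fold change of 0.72 ± 0.18 (SE; limma adjusted p = 0.0313). Iars2 passed the test in 2 of the 8 comparisons with 1 library omitted, those without VC.2 and AP.1, with log2 fold changes from 0.63 to 0.87 over the 8. With the length trend removed its log2 fold change was 0.38 (limma adjusted p = 0.196), and the median of the synthetase list was -0.05. Without VC.4 that median was 0.02, without VC.2 or AP.3 0.06 and without AP.4 0.07, so that it was near 0 in these comparisons. Total-count scaling called 54.2% of all genes tested higher, with a median of 0.90. The difference between these lists and the mitoribosomal genes was not tested.

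The messenger RNAs that the mitoribosome translates were lower by a larger fold. Of the 13 mitochondrially encoded protein genes, 12 passed the filter, 10 of these were lower and all 12 had AP libraries wholly below the VC libraries, with a median log2 fold change of -3.38. The most abundant, mt-Co1, had 2888101, 1889856, 1564033 and 2661946 normalized counts in VC.1 to VC.4, against 284397, 209150.3, 123193 and 271604 in AP.1 to AP.4. Its log2 fold change of -3.37 ± 1.6 (SE) did not pass limma's test (adjusted p = 0.180), while edgeR, DESeq2 and voom on recovered reads each called all 12 genes lower, as did limma with scaling by total counts, whether or not mitochondrial genes were in the total. Limma's SE is drawn towards a trend over genes of similar level, so that of mt-Co1 does not measure the spread of its own libraries alone. The number of lower genes was 6 without AP.2 and 6 without AP.3. Near-identical nuclear copies of mitochondrial genes could make these counts uncertain, which was not tested. In VC.1, the library with the highest mitoribosomal level, the mitochondrially encoded share was also the highest (54.3%). In VC.4, with 52.3%, the mean log2 level of the 77 members was the lowest of the VC libraries (8.04, against 8.06 in VC.3). The mean of the large subunit was lowest in VC.3 (8.21, against 8.23 in VC.4). In the AP group, AP.3 had the lowest share (5.32%) and the lowest mitoribosomal level. The part of the mitochondrially encoded share in the result was not tested.

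Cytosolic ribosomal protein genes and nuclear genes of the respiratory chain were taken for comparison. Of 77 genes of the first kind, 8 were lower and 0 higher, all 77 had a fold change below 0, and the median was -0.52. Of 82 genes of the other kind, which included those of ATP synthase, 24 were lower and 0 higher, 77 were below 0, and the median was -0.51. The AP libraries lay wholly below the VC libraries in 31 mitoribosomal, 34 cytosolic ribosomal and 37 respiratory chain genes. These counts changed with the tool and with single libraries. Lower cytosolic ribosomal genes numbered 33 with DESeq2 and 16 with voom, and lower respiratory chain genes 39 with DESeq2. Of all genes tested, DESeq2 called 8.53% lower and voom 4.53%, compared with 4.0% by limma. Without AP.2 the numbers were 0 cytosolic ribosomal and 2 respiratory chain genes, without AP.3 0 and 1, without AP.4 4 and 4, and without VC.1 4 and 8. Without VC.2 the lower respiratory chain genes numbered 13, and without AP.1 the lower cytosolic ribosomal genes 5. The share of all genes that were lower also changed. It was 0.971% without AP.2, 0.589% without AP.3, 0.871% without AP.4, 1.63% without VC.1, 3.15% without VC.2 and 5.12% without AP.1. No difference between the mitoribosomal genes and either group was tested. Total-count scaling turned the direction of both, with a median of 0.35, 0 lower and 19 higher for cytosolic ribosomal genes and a median of 0.36, 0 lower and 26 higher for respiratory chain genes. Under that scaling 54.2% of all genes tested were higher and their median was 0.90, so that both lists stayed below the median of all genes.

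Markers of other cell types were compared between the groups. All 12 measured markers of suprabasal keratinocytes had a fold change above 0 and 10 were higher (12 under total-count scaling). Krt10 was the most abundant, and none of the markers was at 0 in all libraries of a group. Their summed normalized counts were 6498, 13717, 9420.3 and 6311 in VC.1 to VC.4, against 45829, 42737, 126129 and 176021 in AP.1 to AP.4. These transcripts were thus present although the study's methods describe a removal of interfollicular keratinocytes. How complete and how equal this removal was between the groups was not tested. Of 7 basal keratinocyte markers 3 were higher (median 1.02, and 1.89 with 7 higher under total-count scaling). Of 5 endothelial markers 2 were higher (median 1.44, and 2.31 with 5 higher under total-count scaling). The 10 skeletal muscle markers, led by Acta1, all had a fold change below 0 (median -1.80, and -0.93 under total-count scaling), where 0 passed limma's test with all libraries and 8 had an unadjusted p under 0.05. Their summed normalized counts were 45842, 71035, 37679.7 and 35919.7 in VC.1 to VC.4, against 71201, 9066, 5313 and 11452 in AP.1 to AP.4, so that AP.1 was as high as the highest VC library. Without AP.1 all 10 muscle markers were lower, with a median of -2.58, and 15 mitoribosomal members were lower. The basal keratinocyte count was 0 without VC.1, VC.4, AP.3 or AP.4, 1 without AP.2 and 0 with the length trend removed. The endothelial count ran from 1 to 4 over the single libraries omitted, with 1 without VC.1, VC.2, AP.2, AP.3 or AP.4 and 4 without VC.4. Over all genes tested, 54.2% were higher under total-count scaling. The part of muscle, keratinocyte and endothelial cells in the result was not tested.

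The markers of the labelled tissue were present in both groups. Of 7 fibroblast markers, led by Col1a1, 0 passed limma's test and 2 had an unadjusted p under 0.05, as did 30.3% of all genes tested, and 0 passed with edgeR and 1 with DESeq2. Their median log2 fold change was 0.41, but 0.23 without AP.1, where 1 was lower, 0.24 without VC.2, 0.26 without VC.3 and 0.75 without VC.4, and it was 1.28 with 6 higher under total-count scaling. Of 11 hair follicle markers, led by Krt15, 0 passed limma's test and 3 had an unadjusted p under 0.05, while 1 passed with edgeR and 2 with DESeq2. Their median was 0.28, but 0.51 without AP.2, and 1.15 with 8 higher under total-count scaling, where 54.2% of all genes tested were higher. Limma called 2 higher without AP.1, 1 higher without VC.2 and 1 lower without VC.4.

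Of 7 adipocyte markers 0 passed with limma, edgeR or DESeq2 and 1 had an unadjusted p under 0.05. Their median was 0.23, but -0.17 without VC.2, -0.27 without AP.2, 0.13 without VC.3, 0.40 without AP.4, 0.57 without VC.1 and 1.09 with 3 higher under total-count scaling, so that it had no firm direction. Of 7 leukocyte markers 0 passed with limma or edgeR, 3 passed with DESeq2 (2 lower and 1 higher) and 5 had an unadjusted p under 0.05. Their median was -0.50, but -0.84 without AP.1, -0.31 without AP.4, and 0.35 with 3 higher under total-count scaling. Limma called 1 lower without VC.2, 1 lower without VC.3 and 1 higher without AP.1. Of 5 red blood cell markers 1 was higher (median 0.94), and 0 were without VC.1, AP.2 or AP.4. The median was 0.29 without VC.1, 0.53 without AP.2 and 0.49 with a pseudocount of 5. It was 1.59 with 3 higher under total-count scaling, and DESeq2 called 1 lower beside 1 higher. Total-count scaling called 54.2% of all genes tested higher. Whether these cell types had a part in the result was not tested.

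Many mitoribosomal genes share sequence with neighbours. In 32 of the 77 members, exons overlap those of another gene, in 9 of them over more than 20% of their exonic bases. Among the 17 lower members this was the case for Mrpl24, of whose exonic bases 26.3% overlap Rrnad1 on the opposite strand. In Mrps34 the overlap reached 77.8% and in Mrps25 69.8%. No source used here states whether strand was used in counting, so these values are uncertain. In 14 members more than 10% of the 50-base words of the transcript also occur in a transcript of another gene, with 76.4% in Mrpl23 (Mrpl23-ps1), 32.4% in Mrpl27 and 32.2% in Mrps6.

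Promoters could be examined for 68 of the 77 members, in RefSeq sequences of GRCm38.p6 from 250 bases before to 50 bases after the annotated start. Members often face another gene. In 25 of these 68 genes (36.8%) a coding gene on the opposite strand started between 1000 bases upstream and 100 bases inside, compared with 8.66% of the 17492 coding genes with a promoter sequence, and with 1374 of the 11460 of these that were tested (12%). In 1 pair both genes were members. Mrps11 and Mrpl46 start 42 bases apart on chromosome 7. Mrps11 had 215, 164, 164 and 146 normalized counts in the vehicle libraries and 119, 104, 105 and 104 in the AP libraries, and Mrpl46 had 242, 157, 134 and 178 and 140.0, 122, 125 and 129. The groups did not overlap for Mrps11 and overlapped for Mrpl46, and neither passed the test (log2 fold changes -0.66 ± 0.20 and -0.43 ± 0.22 SE, limma adjusted p = 0.0549 and 0.204). The 2 genes also share 173 exonic bases on opposite strands and were named here after their values were seen.

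The other partners did not pass the test. Of 23 tested partners that are not members, 0 were called by limma in either direction, 18 had a fold change below 0, and the median was -0.23, compared with -0.44 for the 25 members facing another gene. Fau, which codes for a cytosolic ribosomal protein and faces Mrpl49, had a log2 fold change of -0.74 (limma adjusted p = 0.0598). Ncapd2, which faces Mrpl51, had one of 0.30 (limma adjusted p = 0.395) while Mrpl51 was lower.

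Short motifs of factors known for genes of mitochondrial function were searched on both strands. The ETS core CCGGAAG was found in 24 of the 68 promoters (35.3%), compared with 11.9% of the 17492 coding promoters. The YY1 core AAGATGG was found in 13 (19.1%, compared with 6.37%) and the NRF1 core GCATGCG in 8 (11.8%, compared with 4.49%). The last 3 bases of the ETS core are the first 3 of the YY1 core, and both overlapped in 0 member promoters. Among the 11460 coding genes tested, the shares were 16.5% for the ETS, 6.79% for the YY1 and 5.98% for the NRF1 core. Members with the ETS core had a median log2 fold change of -0.44 and those without it -0.45. For the YY1 core the medians were -0.52 and -0.43, and for the NRF1 core -0.32 and -0.47. By limma, 5 of the 24 members with the ETS core, 1 of 13 with the YY1 core and 0 of 8 with the NRF1 core were lower. Among the members without the core, 8, 12 and 13 were lower in the same order. These differences were not tested. A match describes letters in a window and was not tested as a site.

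To show what such promoters look like, the 250 bases before the start are given for the 4 lower members in which this stretch holds no annotated exon. These are Mrpl58 at chr11:115403502-115403751, Mrpl45 at chr11:97315466-97315715, Mrps9 at chr1:42850983-42851232 and Mrpl52 at chr14:54426659-54426908, all on the plus strand and written 5′ to 3′, with motif matches in capitals. Mrpl58 holds the ETS core close to the start and Mrpl52 holds the YY1 core and, on the opposite strand, the ETS core, while Mrpl45 and Mrps9 hold none of the 3 motifs in this stretch.
Mrpl58: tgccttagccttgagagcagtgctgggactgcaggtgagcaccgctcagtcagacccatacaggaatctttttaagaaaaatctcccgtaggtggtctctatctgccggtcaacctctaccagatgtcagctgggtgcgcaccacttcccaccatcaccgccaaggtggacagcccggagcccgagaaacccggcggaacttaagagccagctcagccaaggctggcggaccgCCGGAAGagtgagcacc
Mrpl45: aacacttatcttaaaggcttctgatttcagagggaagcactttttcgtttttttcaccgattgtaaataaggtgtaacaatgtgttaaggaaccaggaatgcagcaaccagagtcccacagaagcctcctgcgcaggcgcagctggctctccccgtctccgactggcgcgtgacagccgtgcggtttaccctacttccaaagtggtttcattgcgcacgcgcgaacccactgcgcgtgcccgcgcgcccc
Mrps9: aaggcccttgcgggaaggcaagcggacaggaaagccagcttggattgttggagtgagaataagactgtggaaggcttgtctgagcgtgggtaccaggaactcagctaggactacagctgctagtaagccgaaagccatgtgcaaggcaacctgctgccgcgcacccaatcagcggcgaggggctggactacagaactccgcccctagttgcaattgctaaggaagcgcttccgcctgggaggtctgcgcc
Mrpl52: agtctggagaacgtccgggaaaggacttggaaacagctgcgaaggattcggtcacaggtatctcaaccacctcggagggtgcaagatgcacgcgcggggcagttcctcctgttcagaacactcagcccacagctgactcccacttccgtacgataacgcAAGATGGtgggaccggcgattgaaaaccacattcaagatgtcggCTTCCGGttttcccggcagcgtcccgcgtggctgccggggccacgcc

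The number of lower members depended on single libraries. It was 7 without VC.1, 9 without VC.2, 5 without AP.2, 3 without AP.3 and 5 without AP.4, when the share of all genes that were lower was 1.63%, 3.15%, 0.971%, 0.589% and 0.871%. In the same order, large subunit genes numbered 5, 7, 3, 2 and 4 and small subunit genes 2, 2, 2, 1 and 1. When single libraries were omitted, the median of the members stayed between -0.50 and -0.35, and the members with AP wholly below VC numbered 32 to 43, where 9.86% to 13.3% of all genes tested met the same condition. Mrpl58, Mrpl45 and Mrps6 passed the test in all 8 of these comparisons, but not under total-count scaling, where their log2 fold changes were -0.02, -0.04 and -0.32. Of the other 9 of the 12 lower members with the largest fold change, Mrpl28 passed in 7, Mrps21, Mrpl51 and Mrpl24 in 5, Mrpl11 in 4, Mrpl27 and Mrps9 in 3, and Mrpl2 and Mrpl15 in 2 of the 8.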

How the data were processed

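RNA of dermis with hair follicles from 8 libraries (4 VC, 4 AP) had been sequenced as oligo-dT selected mRNA. The authors deposited signal values per gene, which are counts divided by a size factor per library. The labels name STAR, HTSeq, DESeq2 and mm10, while the study's methods name featureCounts, and the strandedness of counting is not given in the sources used here. The deposited table also holds the authors' comparison columns (mean, log2 fold change, its error, statistic, p and adjusted p), which were not used.

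Dividing each library by the step between its values recovered whole reads, and 150160 of 150160 values were whole within 0.1 read. Total reads per library ran from 6454563 to 11190113. Columns were assigned to groups by name, and no column could be tied to a mouse, so the p-values measure the spread between libraries.

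The filter asked for 3 or more normalized counts in 4 or more of the libraries, and the 15964 of 18770 genes that passed were tested on log2(value + 1) with limma 3.58.1 (moderated test with a trend, R 4.3.3), with Benjamini-Hochberg adjustment over all genes tested. A gene was called at an adjusted p under 0.05, which gave 639 lower and 1011 higher genes. Tables were handled in Python 3.11.15 with numpy 2.4.6 and pandas 2.3.3. The test was run on counts simulated at the real mean levels, with 200 genes changed and the same dispersion for every gene. These counts held no group difference in mitochondrially encoded share and no length trend, so they do not check the test under those conditions. Alternatives were edgeR 4.0.16, DESeq2 1.42.0 and voom on recovered reads, other pseudocounts, filters and scalings, nuclear reads sampled to an equal depth of 3080758, a trend on transcript length removed, and each library left out in turn.

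Genes were named by a written rule: the 12 called members with the largest fold change in a direction (if under 10 were called, those with the lowest p up to 10), the 2 highest and 2 lowest levels per length in each subunit, the highest and lowest fold change in each subunit, members with known roles and paralogs, at most 5 called genes of each related list, and the most abundant mitochondrially encoded gene. Members and gene lists were chosen with earlier results of these data known. The assignment to bacterial homologs, the distance that defines facing genes, leaving out VC.1 and VC.4 together, and the median transcript length were chosen after the data were seen. Positions and exons are from GENCODE M21, and promoter sequences are from RefSeq on GRCm38.p6.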

Additional observations from a re-analysis of the deposited data

Results flagged for a closer look

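In 6 of the 76 groups of 4 libraries examined, 1 library lay far from the others, where chance gives about 1 in 20. Mrps6 had 68.8 normalized counts in AP.3, while the other AP libraries had 121 to 127. Mrpl51 had 780.4 normalized counts in VC.1, while the other VC libraries had 523 to 538. Mrps35 had 322 normalized counts in VC.1, while the other VC libraries had 156 to 175. Mrpl3 had 198 normalized counts in AP.1, while the other AP libraries had 234 to 238. Mrps16 had 564 normalized counts in VC.1, while the other VC libraries had 282 to 313. Mrps27 had 209 normalized counts in VC.1, while the other VC libraries had 158 to 165.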

How the results depend on the processing

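With scaling by total counts, 70 genes were lower and the number of genes higher in AP was 8657, 0 members were lower (0 large and 0 small subunit genes) and 24 higher, and the median log2 fold change was 0.43 for the members, 0.41 for the large and 0.44 for the small subunit. The log2 fold change then became 0.14 for Mrps21, 0.14 for Mrpl51, 0.15 for Mrpl2, 0.17 for Mrpl15, 0.17 for Mrpl24, 0.20 for Mrpl27, 0.20 for Mrps9, 0.25 for Mrpl52, 0.53 for Mrpl12, 0.80 for Mrpl3, 0.68 for Mrpl57 and 0.21 for Gadd45gip1. It stayed below 0 but did not pass the test for Mrpl58 (-0.02), Mrpl28 (-0.02), Mrpl45 (-0.04), Mrpl11 (-0.07) and Mrps6 (-0.32). This scaling divides by totals that hold the mitochondrially encoded reads, and it moved the median of all genes by 0.84. With these genes left out of the total, 14 members were lower, of which 2 were small subunit genes. DESeq2 called 1362 genes lower and 1677 higher, and 7 small subunit genes lower. With the length trend removed 439 genes were higher, and with the median length, chosen after the data were seen, 595 were. Without VC.1 and VC.4, also chosen after the data were seen, 119 genes were lower and 267 higher, 1 member was lower (1 large and 0 small subunit genes), and the small subunit's median was -0.26. The VC libraries that remain there still hold 44.9% and 42.1% mitochondrially encoded reads, so this does not test the part of that share. With each library left out in turn, fewer libraries were compared, and 94 to 817 genes were lower, 209 to 1082 higher, 3 to 15 members lower, 2 to 11 large subunit genes lower and 1 to 4 small subunit genes lower. Apart from fewer libraries and the totals named above, the cause was not tested. In every alternative but total counts, the median of the members was below 0. No paired analysis was possible because the columns share no numbers with the labelled samples. The lowest member had 31 reads in the shallowest library, which limits the precision of single members more than of medians.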
